A study of Mus musculus with 18 samples.

Results

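Immediate early genes are switched on within minutes of a stimulus without new protein synthesis, and a part of their products shuts the stimulus down again. The choroid plexus is a frond of epithelium around blood vessels that hangs in each brain ventricle and secretes cerebrospinal fluid. The levels in this tissue of 10 immediate early genes and feedback genes of the kinase ERK are described here. They were chosen by name: Fos, Fosb, Jun, Junb, Egr1, Atf3, Ier2, Dusp1, Dusp6 and Spry4. All 10 were found among the 50584 genes of the count table, and all 10 were among the 16598 genes that passed the filter on low counts. The tissue was taken whole from MRL/lpr mice, in which the lpr mutation of the death receptor gene Fas leads to lupus-like autoimmunity, and from MRL/+ mice, the control strain without it. MRL/lpr contributed 6 libraries at 12 weeks of age and 6 at 16 weeks, and MRL/+ contributed 3 at each age. The lpr mutation is carried in every cell of the animal. Whether libraries of a group came from separate animals is not stated in the labels, and the p-values therefore reflect the spread among these libraries, which may be technical.

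Growth factor and cytokine receptors pass their signal through Ras, Raf and MEK to the kinase ERK, which activates transcription factors that are already bound at immediate early promoters. Fos and Fosb pair with Jun and Junb in the dimeric transcription factor AP-1. Egr1 is a zinc finger transcription factor, Atf3 a stress-inducible member of the ATF/CREB family, and Ier2 a nuclear protein of the same early wave. Dusp1 is a phosphatase of the nucleus that acts mostly on the stress kinases p38 and JNK, Dusp6 is a phosphatase of the cytoplasm that acts on ERK, and Spry4 inhibits receptor signalling upstream of ERK. Transcripts of Fos, Egr1 and Dusp1 are short-lived, and in many tissues they respond to the handling and dissection of the animal as well as to physiological stimuli.

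The promoters are shown as the 250 bases before the RefSeq start of each gene on GRCm38.p6, since 6 of them belong to genes that moved together between libraries and the seventh to Dusp6, which did not move with them. The RefSeq table held 7 of the 10 genes, all 7 of which are printed, and Egr1, Ier2 and Spry4 were not matched. Capitals mark TGACG, the core of the cyclic AMP response element (CRE), and, in Fosb, the EGR site GCGNGGGCG. The core was searched on both strands, reads CGTCA where it lies on the other strand, as in Atf3, and lies inside the full element TGACGTCA, which is in capitals as a whole in Dusp1. The windows are chr12:85473640-85473889 on the plus strand for Fos, chr7:19310046-19310295 on the minus strand for Fosb, chr4:95052223-95052472 on the minus strand for Jun, chr8:84978749-84978998 on the minus strand for Junb, chr1:191183334-191183583 on the minus strand for Atf3, chr17:26508473-26508722 on the minus strand for Dusp1 and chr10:99262981-99263230 on the plus strand for Dusp6.
Fos: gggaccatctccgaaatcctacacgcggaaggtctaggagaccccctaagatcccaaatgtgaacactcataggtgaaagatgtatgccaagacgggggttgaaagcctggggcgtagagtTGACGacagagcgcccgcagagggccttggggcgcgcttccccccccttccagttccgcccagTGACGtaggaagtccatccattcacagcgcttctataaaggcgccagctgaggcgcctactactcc
Fosb: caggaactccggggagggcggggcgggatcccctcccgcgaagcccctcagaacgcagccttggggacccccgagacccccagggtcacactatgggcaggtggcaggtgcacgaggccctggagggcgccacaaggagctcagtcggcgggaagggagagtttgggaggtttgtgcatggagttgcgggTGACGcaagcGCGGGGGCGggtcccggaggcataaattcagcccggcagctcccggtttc
Jun: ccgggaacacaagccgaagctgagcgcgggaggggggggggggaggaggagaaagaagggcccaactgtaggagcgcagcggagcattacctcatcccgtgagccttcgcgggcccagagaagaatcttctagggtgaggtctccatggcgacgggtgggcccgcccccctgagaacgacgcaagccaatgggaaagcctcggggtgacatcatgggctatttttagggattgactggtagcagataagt
Junb: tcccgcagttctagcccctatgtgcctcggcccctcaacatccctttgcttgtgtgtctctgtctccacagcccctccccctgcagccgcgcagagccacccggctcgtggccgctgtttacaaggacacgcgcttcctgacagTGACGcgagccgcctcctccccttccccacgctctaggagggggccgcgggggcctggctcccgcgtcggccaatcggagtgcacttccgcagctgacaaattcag
Atf3: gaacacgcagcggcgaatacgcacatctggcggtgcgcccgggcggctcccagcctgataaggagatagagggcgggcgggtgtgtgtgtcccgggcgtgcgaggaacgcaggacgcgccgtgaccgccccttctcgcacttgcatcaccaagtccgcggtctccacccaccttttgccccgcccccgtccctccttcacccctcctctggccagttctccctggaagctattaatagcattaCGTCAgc
Dusp1: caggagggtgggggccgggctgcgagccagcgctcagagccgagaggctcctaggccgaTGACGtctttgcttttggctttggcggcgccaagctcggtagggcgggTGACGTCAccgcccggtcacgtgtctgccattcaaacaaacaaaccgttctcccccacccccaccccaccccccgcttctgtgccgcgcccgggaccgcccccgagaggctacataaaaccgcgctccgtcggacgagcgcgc
Dusp6: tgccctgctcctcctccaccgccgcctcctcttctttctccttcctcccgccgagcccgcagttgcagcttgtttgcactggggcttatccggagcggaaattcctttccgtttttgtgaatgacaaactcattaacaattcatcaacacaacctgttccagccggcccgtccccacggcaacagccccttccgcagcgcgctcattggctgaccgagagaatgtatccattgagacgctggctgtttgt
The core TGACG was present in 5 of the 7 promoters searched, namely those of Fos, Fosb, Junb, Atf3 and Dusp1, and in 17.8% of the 32851 promoters of the same length in the table. The promoters of Jun, which moved with the other genes, and of Dusp6 did not hold these letters in this window. The full element was present in that of Dusp1 alone among the 7, and in 1.55% of all promoters. The EGR site was present in that of Fosb alone among the 7, and in 4.70% of all. The AP-1 site TGANTCA and the CArG box, the serum response element, were in none of the 7 windows, and in 6.75% and 1.47% of all. A match describes the letters only, and sites outside these 250 bases or in the promoters of Egr1, Ier2 and Spry4 were not searched.

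Total counts ran from 11164284 to 14602253 per library. Markers of the labelled tissue were present in every library, with 14 epithelial genes summing to between 160659 and 321400 CPM (read counts scaled to the normalised library size). The sum of 8 leukocyte genes separated the strains, which at 12 weeks ran from 663 to 4187 CPM in MRL/lpr and from 58.7 to 61.9 in the controls, and at 16 weeks from 342 to 3334 and from 72.4 to 112. All 8 of these genes were higher in MRL/lpr at both ages, and Cd3e was at 0 in MRL/+ at 12 weeks. Genes of neighbouring tissues stood out in single libraries: pineal genes in MRL/lpr 12 weeks replicates 1 and 4 (71.2 and 63.9 CPM), cerebellar genes in MRL/+ 12 weeks replicate 1 (394 CPM) and muscle genes in MRL/+ 16 weeks replicate 1 (602 CPM). A call that was lost without these 4 libraries is given with its adjusted p without them, and later mentions of 4 libraries mean these. Their removal left other carry-over in place. Cerebellar sums were also 201 CPM in MRL/lpr 12 weeks replicate 2 and 211, 144 and 114 CPM in MRL/lpr 16 weeks replicates 1, 2 and 3. Pituitary sums were 67.0, 74.2 and 39.6 CPM in MRL/lpr 12 weeks replicates 2, 3 and 5, beside 1.38 and 1.09 in replicates 4 and 6. In whole tissue, more cells of a type and more RNA per cell cannot be told apart.

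Levels are CPM with library sizes scaled by the trimmed mean of M-values (TMM). They are given per kilobase of exon where genes are compared. Where 3 CPM values of a gene are listed for a group, MRL/lpr values are the lowest, median and highest library. Those of MRL/+ are its 3 libraries in order of replicate. Per kilobase, Dusp1 was the most abundant of the 10 genes in all 4 groups, with 14.01 CPM per kilobase for MRL/lpr and 15.0 for MRL/+ at 12 weeks, and at 14.3 and 8.24 at 16 weeks. Dusp6 stood next to it at 16 weeks in both strains, at 9.05 CPM per kilobase in MRL/lpr and 3.94 in MRL/+. The SD of Dusp1 per kilobase in MRL/lpr at 16 weeks was 13.9, so in that group these neighbours did not differ beyond their spread. In MRL/+ at 16 weeks the SDs were 3.52 for Dusp1 and 0.596 for Dusp6. There the lowest Dusp1 value, 4.67 CPM per kilobase, lay just above the highest Dusp6 value, 4.61, both in replicate 3. Atf3, Spry4 and Fosb were the 3 least abundant in every group. Fosb lay between 0.0684 and 0.158 CPM per kilobase in the 4 groups, and its raw counts ran from 0 to 23 reads. It had no reads in MRL/lpr 16 weeks replicate 5, where 3 counts, the limit that a count of 0 allows, equal 0.284 CPM. Jund, the AP-1 subunit that is made constitutively, lay between 12.7 and 16.5 CPM per kilobase in the 4 groups. In MRL/+ at 16 weeks Jund stood at 16.5 beside 8.24 CPM per kilobase for Dusp1.

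**Figure D1:**
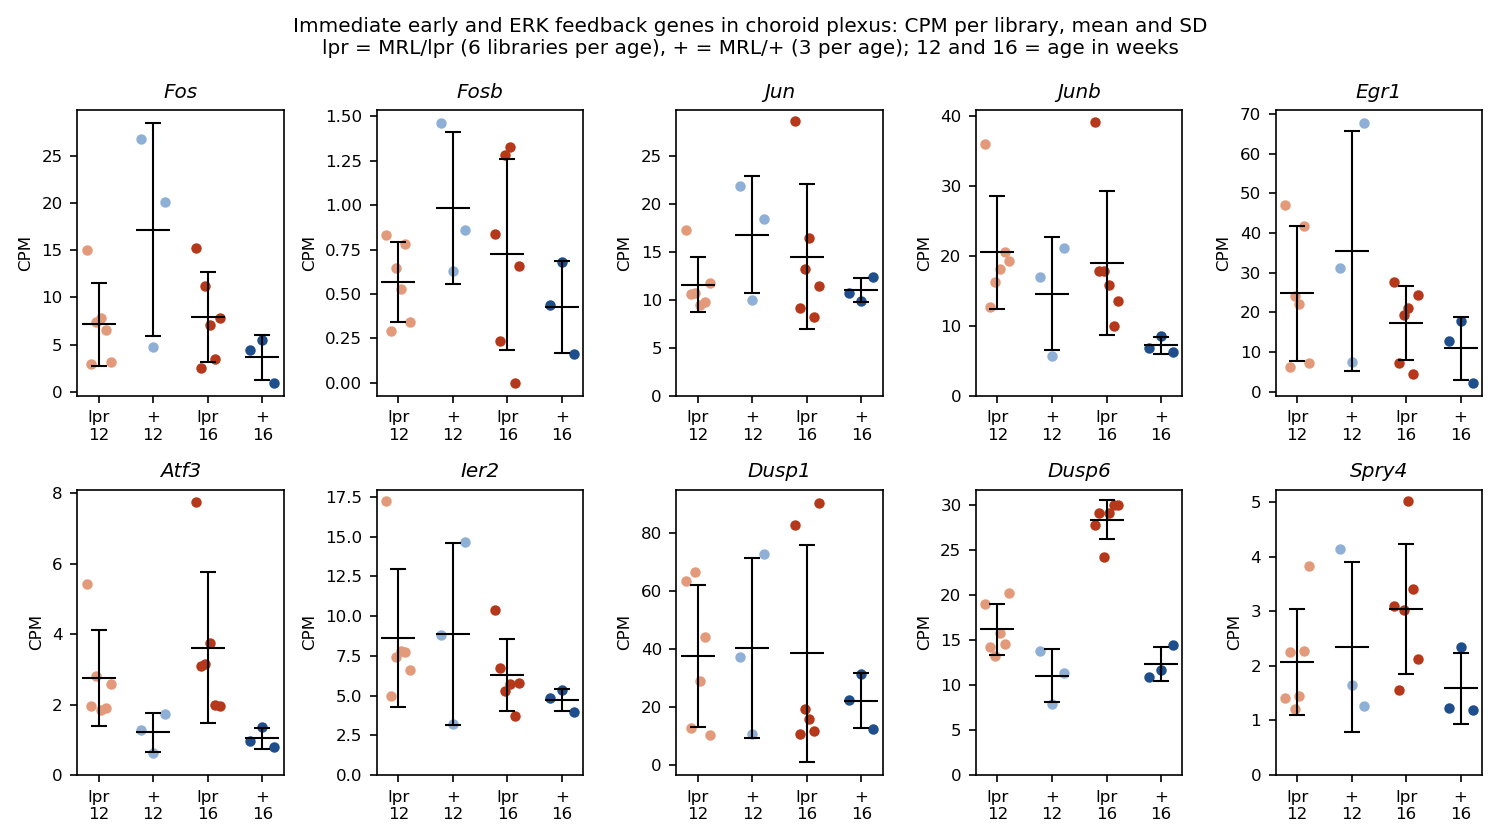
Levels of the 10 genes in CPM, on linear axes that differ between panels, for MRL/lpr (lpr, 6 libraries per age) and MRL/+ (+, 3 per age) at 12 and 16 weeks. Points are libraries, the wide bar is the group mean and the whiskers are 1 SD; the 6 MRL/lpr libraries of 16 weeks form a tight group for Dusp6 between 24.2 and 30.0 CPM, above every other library, while those of Egr1 and Dusp1 scatter widely.

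Dusp6 (chromosome 10, 99263231 to 99267489), the ERK phosphatase, was the member whose groups separated most clearly. In MRL/lpr at 16 weeks the lowest, median and highest library held 24.2, 29.1 and 30.0 CPM, and in MRL/+ of that age the 3 libraries held 10.9, 11.7 and 14.4. In MRL/lpr at 12 weeks the lowest, median and highest were 13.2, 15.2 and 20.2, and the 3 MRL/+ libraries held 13.8, 7.91 and 11.4. All 6 MRL/lpr libraries of 16 weeks thus lay above all other 12 libraries, while at 12 weeks MRL/+ replicate 1 overlapped the lower end of MRL/lpr. At 16 weeks Dusp6 was 2.30-fold higher in MRL/lpr (28.3 ± 2.20 against 12.3 ± 1.87 CPM, mean ± SD, n = 6 and n = 3, log2 fold change 1.20, SE 0.17, adjusted p 0.00125 by edgeR's quasi-likelihood test with Benjamini-Hochberg adjustment over all genes), and it ranked 37th of 16598 by p. At 12 weeks the log2 fold change was 0.55 (SE 0.17), with an adjusted p of 0.0637. The call at 16 weeks held under all 27 alternatives of normalization, filter, test and libraries, with log2 fold changes of 1.11 to 1.75. The 12-week difference passed in 3 of them, among these DESeq2 (adjusted p 0.0155).

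Leukocyte content and Dusp6 did not rank the MRL/lpr libraries in the same order. MRL/lpr 16 weeks replicate 6 had the lowest leukocyte sum of its strain, 342 CPM, and held 30.0 CPM of Dusp6. MRL/lpr 12 weeks replicate 1 had the highest leukocyte sum, 4187 CPM, and held 19.0 CPM of Dusp6. Within MRL/lpr at 12 weeks, however, replicates 1 and 6 had the highest leukocyte sums (4187 and 2392 CPM) and also the highest Dusp6. They held 19.0 and 20.2 CPM of Dusp6, and the rest of that group 13.2 to 15.8. With group means removed, the correlation over the 18 libraries was r = 0.114 (Spearman rho 0.0382, permutation p 0.589 and 0.875), and it was 0.0845 without the 2 libraries farthest from the median leukocyte sum. This was 1 of 130 such relations between the 10 genes and 13 marker lists, none of which passed at an adjusted p under 0.05 (Benjamini-Hochberg; 0.912 for this one). The relations of Dusp6 with an unadjusted p under 0.05 were those with the endothelial sum (r = 0.521, rho 0.360, permutation p 0.0385 and 0.186, adjusted p 0.518 and 0.808, r = 0.509 without the 2 farthest libraries) and with the oligodendrocyte sum (r = -0.490, rho -0.455, permutation p 0.0235 and 0.0559, adjusted p 0.436 and 0.484, r = -0.400 without them). The 7 endothelial genes all had values above 0 between the strains at 16 weeks (median log2 fold change 0.69, 0 called). The part of leukocyte, endothelial or oligodendrocyte content in the Dusp6 difference was not tested.

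**Figure D2:**
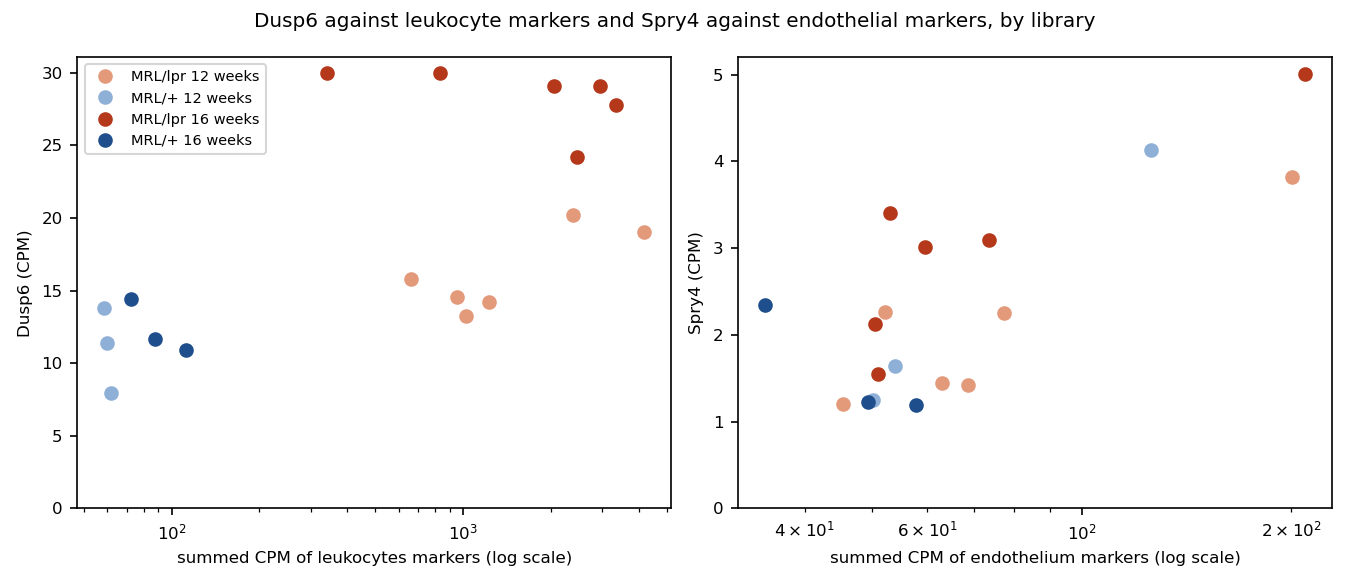
Left, Dusp6 in CPM against the summed CPM of 8 leukocyte markers (log scale); right, Spry4 in CPM against the summed CPM of 7 endothelial markers (log scale). Each point is a library coloured by group; the 6 MRL/lpr libraries of 16 weeks keep Dusp6 between 24.2 and 30.0 CPM across leukocyte sums of 342 to 3334 CPM.

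Atf3 (chromosome 1, 191170296 to 191218039) was the other member called higher in MRL/lpr than in MRL/+ at 16 weeks. The lowest, median and highest MRL/lpr library held 1.97, 3.13 and 7.75 CPM, and the 3 MRL/+ libraries 0.965, 1.36 and 0.798. At 12 weeks MRL/lpr held 1.84, 2.28 and 5.42 CPM, and MRL/+ 1.27, 0.627 and 1.73. At each age every MRL/lpr library lay above every MRL/+ library, by a narrow margin at 12 weeks. The 16-week difference was 3.48-fold (log2 fold change 1.80, SE 0.51, adjusted p 0.0294, edgeR), and that of 12 weeks had a log2 fold change of 1.18 (SE 0.49) and an adjusted p of 0.161. The 16-week call was lost when any MRL/+ library of 16 weeks was left out (adjusted p 0.120, 0.0667 and 0.134 without replicates 1, 2 and 3), without the 4 libraries named above (0.120) and when only the groups compared were fitted (0.0548), with log2 fold changes of 1.46 to 2.43 over all 27 alternatives. The 2 lowest MRL/lpr libraries of 16 weeks in Atf3, replicates 5 and 6, were also the 2 lowest in the leukocyte sum (836 and 342 CPM), and over the 18 group-centred libraries Atf3 and the leukocyte sum gave r = 0.725 (rho 0.666, permutation p 0.00154 and 0.00356, adjusted p 0.183 and 0.386, r = 0.620 without the 2 farthest libraries). The part of leukocyte content in the Atf3 difference was not tested.

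Junb (chromosome 8, 84974484 to 84978718), the AP-1 partner, separated the strains at 16 weeks without passing the test. The lowest, median and highest MRL/lpr library held 9.92, 16.8 and 39.1 CPM, and the MRL/+ libraries 6.84, 8.58 and 6.22, so that no libraries overlapped. The log2 fold change was 1.40 (SE 0.45) and the adjusted p 0.0535 (edgeR), and 8 of the 27 alternatives placed it under 0.05. At 12 weeks MRL/lpr held 12.7, 18.7 and 36.0 CPM and MRL/+ 17.0, 5.64 and 21.2, which overlapped, with a log2 fold change of 0.49 and an adjusted p of 0.531. Over the 18 group-centred libraries Junb and the leukocyte sum gave r = 0.507 (rho 0.507, permutation p 0.0400 and 0.0366, adjusted p 0.518 and 0.474, r = 0.422 without the 2 farthest libraries), and the part of leukocyte content in the Junb levels was not tested. Junb overlaps Prdx2 on the opposite strand, a gene with 51465 reads over all libraries against 4013 for Junb, and Jun overlaps Junos in the same way (140 against 3190 reads). The strand setting of the counting is not given in the sources used here, so reads of these pairs cannot be told apart.

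The remaining AP-1 subunits did not pass in any comparison. Fos (chromosome 12, 85473890 to 85477273) held 2.90, 6.97 and 15.0 CPM as the lowest, median and highest library in MRL/lpr at 12 weeks. The 3 MRL/+ libraries of that age held 26.8, 4.78 and 20.1 CPM in order of replicate. At 16 weeks the values were 2.48, 7.47 and 15.2 CPM in MRL/lpr and 4.47, 5.46 and 0.957 in MRL/+. The high libraries were MRL/+ replicates 1 and 3 at 12 weeks, and the groups overlapped at both ages. The log2 fold change of MRL/lpr against MRL/+ was -1.27 (SE 0.62, adjusted p 0.244, edgeR) at 12 weeks and 1.13 (SE 0.69, adjusted p 0.280) at 16 weeks. Fosb (chromosome 7, 19302696 to 19310051) gave -0.80 and 0.79 on the same scale, and Jun (chromosome 4, 95049034 to 95052222), the main AP-1 partner of Fos, -0.54 and 0.40, all uncalled. Fosb and the epithelial sum gave r = -0.573 (rho -0.534, permutation p 0.0449 and 0.0538, adjusted p 0.518 and 0.484, r = -0.227 without the 2 farthest libraries). Jun held 9.46, 10.7 and 17.3 CPM in MRL/lpr at 12 weeks and 21.9, 10.03 and 18.4 in MRL/+, and 8.22, 12.3 and 28.7 against 10.7, 9.94 and 12.4 at 16 weeks. Jun and the leukocyte sum gave r = 0.554 (rho 0.598, permutation p 0.0518 and 0.0159, adjusted p 0.518 and 0.386, r = 0.551 without the 2 farthest libraries). Jun and the endothelial sum gave r = 0.413 (rho 0.548, permutation p 0.167 and 0.0337, adjusted p 0.912 and 0.474, r = 0.525 without the 2 farthest). The part of leukocyte or endothelial content in the Jun levels was not tested.

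Egr1 (chromosome 18, 34859823 to 34864984) covered a wide range inside every group. MRL/lpr held 6.31, 23.1 and 47.1 CPM as the lowest, median and highest library at 12 weeks and 4.44, 20.2 and 27.6 at 16 weeks. MRL/+ held 31.3, 7.44 and 67.7 CPM at 12 weeks and 12.6, 17.7 and 2.23 at 16 weeks, so that libraries of the same strain and age differed by 9.09 and 7.94 times. The strain differences had log2 fold changes of -0.52 and 0.68 and adjusted p-values of 0.706 and 0.568 (edgeR). Ier2 (chromosome 8, 84661331 to 84662852) gave -0.04 at 12 weeks, from 8.65 ± 4.35 against 8.91 ± 5.73 CPM (mean ± SD), and 0.41 at 16 weeks, from 6.28 ± 2.25 against 4.72 ± 0.692, with adjusted p-values of 0.962 and 0.525. Its groups overlapped at both ages.

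Of the remaining feedback genes, Dusp1 (chromosome 17, 26505590 to 26508519) held 10.2, 36.5 and 66.8 CPM in MRL/lpr at 12 weeks and 37.5, 10.9 and 72.9 in MRL/+. At 16 weeks it held 10.9, 17.7 and 90.6 CPM in MRL/lpr and 22.5, 31.6 and 12.6 in MRL/+. In MRL/lpr at 16 weeks replicates 1 and 6 (82.9 and 90.6 CPM) lay far above the other 4 libraries, which held 10.9 to 19.4. The strain differences had adjusted p-values of 0.952 and 0.508 (edgeR). Spry4 (chromosome 18, 38586268 to 38601268) held 1.21, 1.85 and 3.83 CPM in MRL/lpr at 12 weeks and 4.13, 1.65 and 1.255 in MRL/+, and 1.55, 3.06 and 5.01 against 1.23, 2.34 and 1.20 at 16 weeks. Its log2 fold changes were -0.19 (adjusted p 0.836) and 0.94 (SE 0.47, adjusted p 0.194). The highest Spry4 library of 3 groups was also the highest in the sum of 7 endothelial genes: MRL/lpr 12 weeks replicate 6 (200 CPM), MRL/lpr 16 weeks replicate 4 (209 CPM) and MRL/+ 12 weeks replicate 1 (126 CPM). In the fourth group the highest Spry4 library, MRL/+ 16 weeks replicate 2, had the lowest endothelial sum (35.1 CPM). Over the 18 group-centred libraries this relation had r = 0.714 and rho = 0.544 (permutation p 0.00447 and 0.0378, adjusted p 0.188 and 0.474), and r = 0.527 without the 2 farthest libraries. Spry4 and the sum of 5 ependymal genes gave r = -0.696 and rho = -0.657 (permutation p 0.00282 and 0.0109, adjusted p 0.183 and 0.386), and r = -0.498 without the 2 farthest. Spry4 and the epithelial sum gave r = -0.558 and rho = -0.562 (permutation p 0.0374 and 0.0396, adjusted p 0.518 and 0.474), and r = -0.776 without them. The part of endothelial, ependymal or epithelial content in the Spry4 levels was not tested.

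Counted together, 0 of the 10 genes were called between the strains at 12 weeks, where 6.36% of all genes tested were called. At 16 weeks 2 of 10, Dusp6 and Atf3, were called, both higher, where 11.1% of all genes were called and 8.49% were called higher. Groups that did not overlap were found for 1 gene at 12 weeks (Atf3), where this held for 13.6% of all genes, and for 3 at 16 weeks (Junb, Atf3 and Dusp6), where it held for 18.7%. The median log2 fold change of the 10 genes was -0.14 at 12 weeks and 0.87 at 16 weeks, beside -0.01 and 0.03 over all genes. At 16 weeks 10 of 10 values were above 0, against 3 of 10 at 12 weeks. With limma-voom and sample weights Fosb and Dusp1 turned below 0 at 16 weeks (-0.28 and -0.30), and 6 of 10 values were above 0 at 12 weeks. The marker lists differed in direction. Neuronal, cerebellar, endothelial, astrocyte, oligodendrocyte and leukocyte lists also had higher median strain differences at 16 than at 12 weeks. The medians of epithelial, fibroblast, ependymal, pineal, pituitary, muscle and erythrocyte lists were lower at 16 than at 12 weeks. Of 7 neuronal genes 0 had values above 0 at 12 weeks and 7 at 16 weeks (median log2 fold change -0.98 and 1.42), and of 6 cerebellar genes 0 and 6 (-1.39 and 1.54). Of 7 endothelial genes 4 and 7 were above 0 (0.06 and 0.69). None of the neuronal, cerebellar and endothelial lists held a called gene at either age. The part of any marker list in the medians of the 10 genes was not tested.

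**Figure D3:**
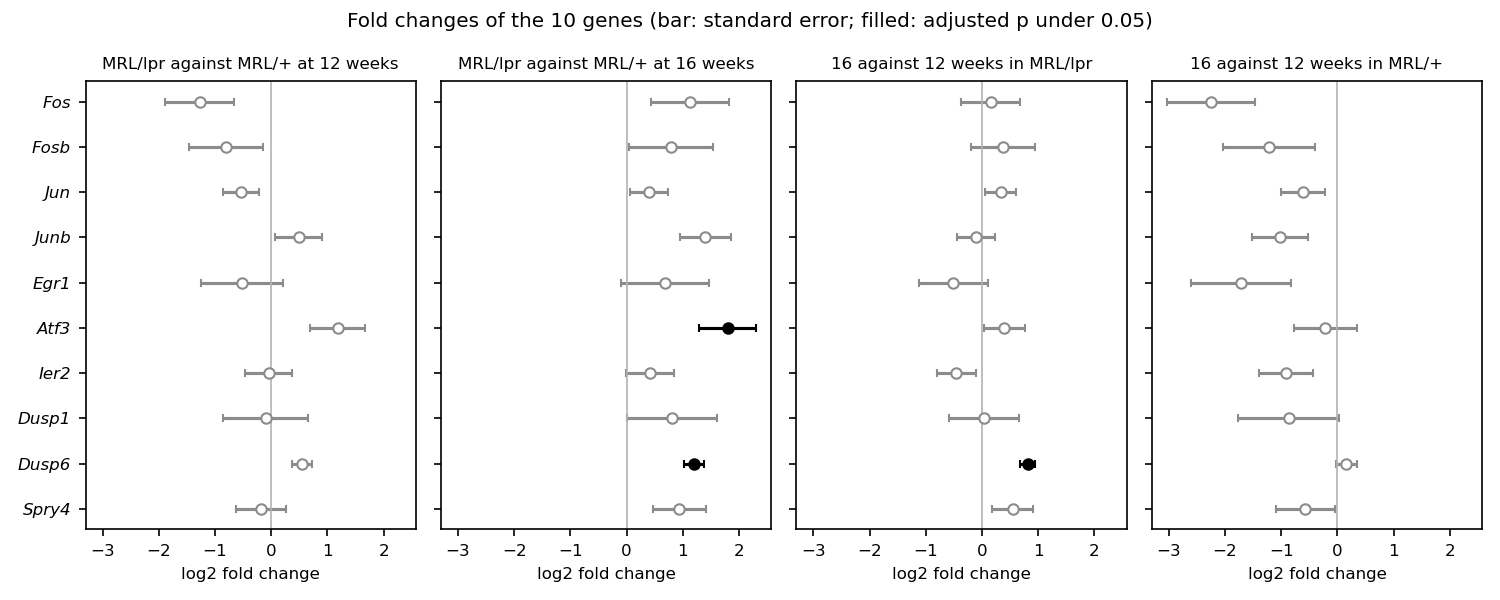
Log2 fold changes of the 10 genes in 4 comparisons, with bars of 1 SE; filled points have an adjusted p under 0.05 in edgeR's quasi-likelihood test. The filled points are Atf3 and Dusp6 between the strains at 16 weeks and Dusp6 between the ages in MRL/lpr.

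Between 12 and 16 weeks, Dusp6 was the only one of the 10 genes called within MRL/lpr. Its 6 libraries of the later age lay above the 6 of the earlier. It rose 1.75-fold (log2 fold change 0.81, SE 0.14, adjusted p 0.0405, edgeR) and was 1 of 6 genes called in this comparison, which is 0.0361% of those tested. Groups of the 2 ages without overlap were found for 67 genes, 0.404%, and of the 10 genes for Dusp6 alone. The call held in 9 of the 27 alternatives, and the adjusted p rose to between 0.0522 and 0.150 on leaving out any MRL/lpr library of 12 weeks except replicate 6 or any MRL/lpr library of 16 weeks, as well as MRL/+ 12 weeks replicate 3 or MRL/+ 16 weeks replicate 1 or 2. Without the 4 libraries named above it was 0.263. The log2 fold change stayed between 0.76 and 1.06 over all 27.

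Within MRL/+ none of the 10 genes was called between the ages, as for all genes (0%; 2173 of 16598 genes had an unadjusted p under 0.05, and DESeq2 called 10 genes). Fos had the lowest value, with a log2 fold change of -2.25 (SE 0.78, unadjusted p 0.0104, adjusted p 0.379), from 17.2 ± 11.3 CPM (mean ± SD, n = 3) at 12 weeks to 3.63 ± 2.37 at 16 weeks. Egr1 and Junb stood at -1.71 and -1.02 (adjusted p 0.388 and 0.381). The strain by age interaction, the difference between the strain effects of the 2 ages, was called for no gene either (0%; 2286 genes at an unadjusted p under 0.05, and 0 of the 10 genes by DESeq2 or limma-voom). Fos had the largest estimate of the 10, 2.40 (SE 0.93, unadjusted p 0.0196, adjusted p 0.361), and Dusp6 stood at 0.65 (SE 0.24, unadjusted p 0.0137, adjusted p 0.361). A change of the strain effect with age was therefore not shown for any of the 10.

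The spread between libraries of the same strain and age divided the 10 genes. It was measured as the SD of log2 CPM within groups, pooled over the 4 groups. Egr1 had an SD of 1.28, Dusp1 of 1.22 and Fos of 1.04, beside a median of 0.33 over all genes with quartiles of 0.21 and 0.54. These 3 genes lay at the 96.6th, 95.7th and 92.7th percentile of all genes tested, and among genes within 0.5 log2 units of their own level at the 99.0th, 99.6th and 90.6th. Fosb followed with 0.88, a gene whose low counts add counting error. Junb, Ier2, Atf3 and Spry4 lay between 0.60 and 0.63, and Jun at 0.49. Dusp6 had the smallest SD of the 10, 0.23, at the 30.6th percentile of all genes and the 46.4th of genes of like level. In total 9 of the 10 lay above the median of all genes.

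Most of the 10 genes deviated together. In MRL/+ at 12 weeks, replicate 2 lay below its group mean in all 10 genes, and replicates 1 and 3 lay above it in 10 and 8. In MRL/lpr replicate 1 lay above its group mean in 9 of 10 genes at both ages, and at 12 weeks replicate 2 did so in 1 of 10. With group means removed, 19 of the 45 pairs among the 10 genes correlated over the 18 libraries at an adjusted p under 0.05 (two-sided test with 100000 permutations of libraries within groups, Benjamini-Hochberg over the 45 pairs), and all 19 were positive. With rank correlation 15 pairs passed. Without the 4 libraries named above 8 pairs passed.

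**Figure D4:**
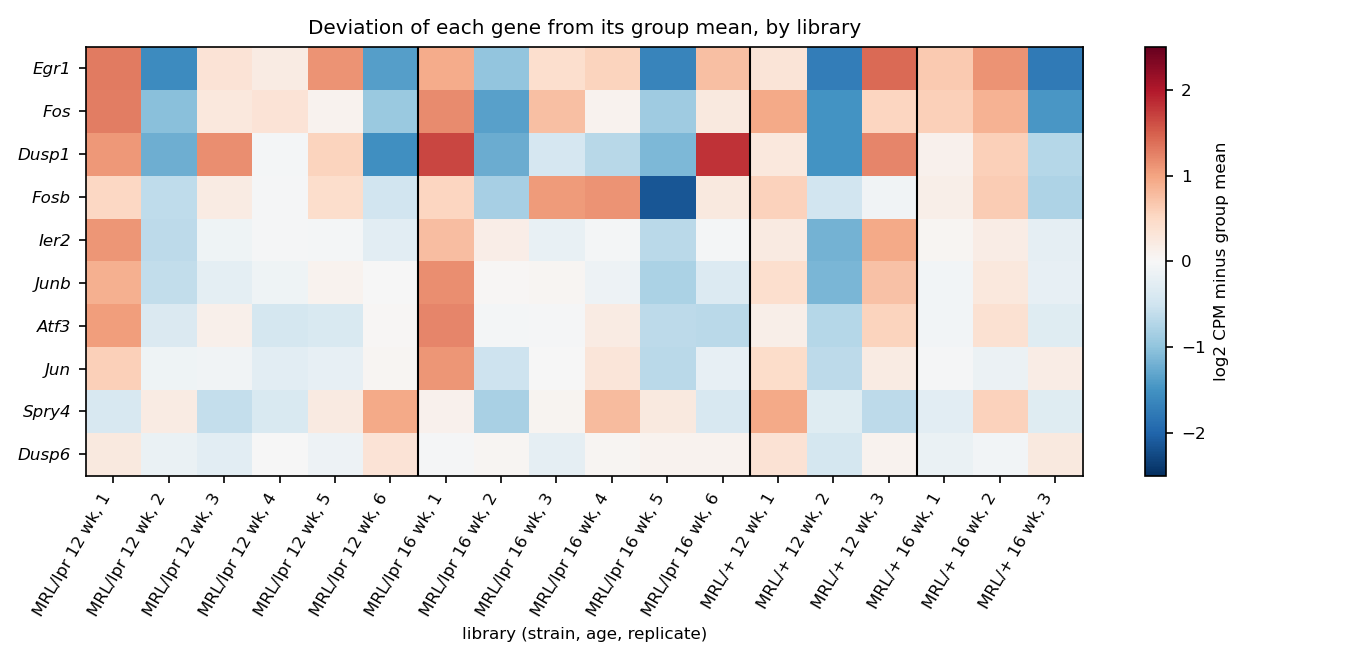
Deviation of each gene from its group mean, in log2 CPM, for the 18 libraries (columns, ordered by group) and 10 genes (rows). Red is above and blue below the group mean; the upper 8 rows share columns of 1 colour, such as MRL/+ 12 weeks replicate 2, and the Dusp6 row is nearly blank.

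Fos and Egr1 correlated at r = 0.906 (rho 0.738, permutation p 0.00014, adjusted p 0.00157), and r was 0.864 without the 2 libraries farthest from the median of Fos. Egr1 and Dusp1 correlated at 0.835 (rho 0.802, adjusted p 0.00157) and 0.824 without the 2 farthest. A second close group was formed by Junb, Ier2 and Atf3. Junb and Ier2 gave r = 0.946 (rho 0.837, permutation p 2e-05, adjusted p 0.0009) and 0.934 without the 2 farthest. Junb and Atf3 gave 0.893 (rho 0.785, adjusted p 0.00157) and 0.842 without them. Jun correlated with Atf3 at 0.834 and with Junb at 0.816, and these fell to 0.658 and 0.659 without the 2 farthest libraries. Among the 7 genes Fos, Fosb, Jun, Junb, Egr1, Ier2 and Dusp1, 14 of 21 pairs passed, with a median r of 0.708. Within the 6 MRL/lpr libraries of a single age, Fos and Egr1 gave 0.911 at 12 weeks and 0.871 at 16 weeks, described without a test.

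Dusp6 and Spry4 stood outside these groups. Neither passed with any of the other 9 genes, including each other (r = 0.324). The values for Dusp6 ran from -0.0989 with Fosb to 0.442 with Ier2, and with Fos it gave 0.0912. Spry4 ran from -0.253 with Dusp1 to 0.324. At n = 18 libraries, weak relations of these 2 genes were not detectable.

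**Figure D5:**
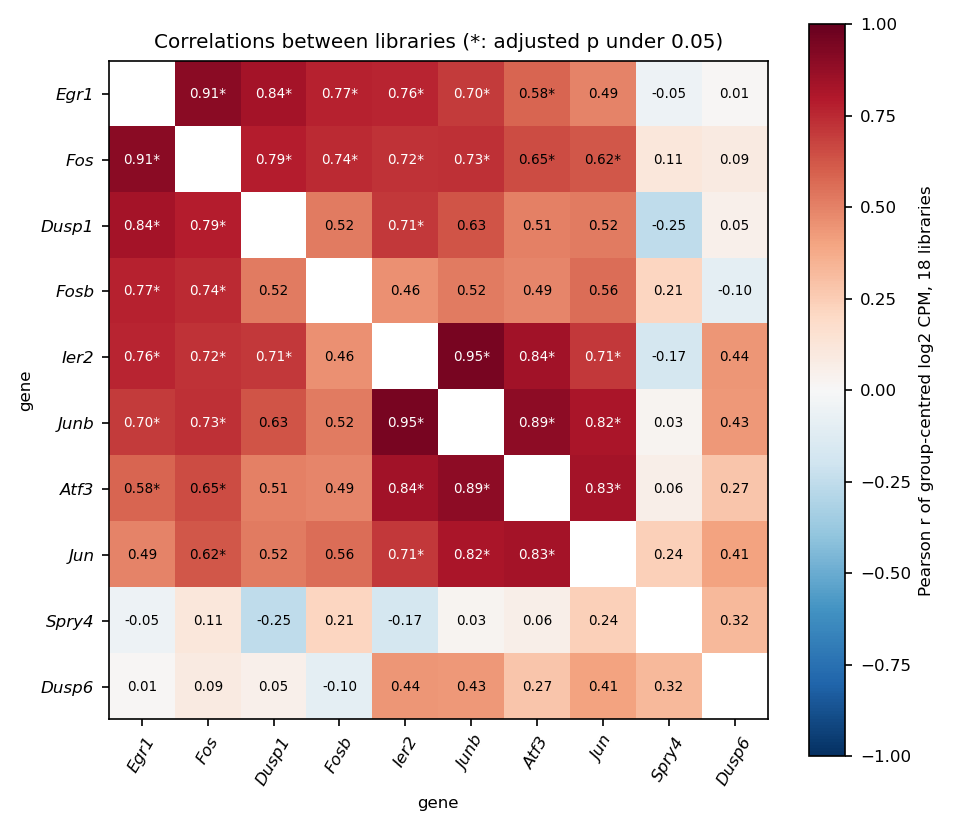
Pearson r of group-centred log2 CPM for each pair of the 10 genes over 18 libraries, with a star where the adjusted permutation p is under 0.05. The 19 starred pairs, each shown on both sides of the diagonal, lie among 8 genes, and the rows of Spry4 and Dusp6 hold none.

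Outside the 10 genes, 9477 genes whose mean log2 CPM was at least 3 were ranked by their correlation with Fos, as a description. The closest was Tsc22d3 (r = 0.789), a leucine zipper gene induced by glucocorticoids, followed by the orphan nuclear receptor Nr4a1 (0.786), itself an immediate early gene, and Errfi1 (0.740), a feedback inhibitor of the EGF receptor. Ncoa5 (0.730), Ppp2r5d (0.727), D11Wsu47e (0.702), Rhob (0.683), Nabp2 (0.676), Emd (0.671) and Ccdc97 (0.671) completed the first 10. None of the 9477 exceeded Egr1, and 2 exceeded Dusp1. The genes closest to Dusp6 were others: Rhbdf1 (0.939), an inactive rhomboid that controls release of EGF receptor ligands, the histone methyltransferase Kmt5c (0.862), Mafg (0.846), Sfi1 (0.837), Pomt1 (0.818), Egfl7 (0.815), Chka (0.815), Banp (0.812), Sppl2b (0.806) and Evc2 (0.798). In that ranking 3992 genes lay above Fos.

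Other genes of ERK feedback and ERK output were described from a list of 18, of which 17 were tested. At 16 weeks 4 were higher in MRL/lpr and 0 lower, beside 8.49% of all genes higher, with a median log2 fold change of 0.39 beside 0.03 over all genes. Etv5, an ETS transcription factor that ERK signalling induces, averaged 11.5 ± 1.44 CPM in MRL/lpr against 3.50 ± 0.820 in MRL/+ and was 3.28-fold higher (log2 fold change 1.71, SE 0.34, adjusted p 0.00458, edgeR), with no overlap (9.23 to 13.3 against 2.55 to 3.996 CPM). Its relative Etv4 was 3.72-fold higher (3.41 ± 0.905 against 0.906 ± 0.203 CPM, adjusted p 0.0143). Ccnd1, which codes for cyclin D1 of the G1 phase, was 3.71-fold higher (9.15 ± 3.22 against 2.46 ± 0.455 CPM, adjusted p 0.00595). The Etv5 call held in all 27 alternatives, that of Etv4 was lost without MRL/+ 16 weeks replicate 2 (adjusted p 0.0724) or 3 (0.0817), and that of Ccnd1 without the 4 libraries named above (0.0536).

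At 12 weeks Etv5, Etv4 and Ccnd1 had log2 fold changes of 0.14, 0.33 and 0.69 and were not called (adjusted p 0.821, 0.679 and 0.298, edgeR). Within MRL/lpr from 12 to 16 weeks they gave 0.91, 0.90 and 0.68, uncalled (adjusted p 0.337, 0.596 and 0.677). The interaction of strain and age was not called for them (adjusted p 0.361 for each). The fourth called gene was Dusp2, a nuclear phosphatase best known from activated leukocytes, with 5.05 ± 3.59 CPM in MRL/lpr against 0.115 ± 0.0390 in MRL/+ at 16 weeks (40.3-fold, adjusted p 0.00373). Dusp2 was also the only gene of this list called at 12 weeks, where the ratio of 348 to 2 pooled counts was 90.2 after scaling for depth (exact 95% interval 24.8 to 748, counting error only; adjusted p 0.00405), a call lost without the 4 libraries (0.0733). The leukocyte sums separated the strains in the same direction, and their part in the Dusp2 difference was not tested. The other Sprouty and Spred genes were not called: Spry2 stood at -0.06, Spry1 at 0.33, Spred1 at 0.29 and Spred2 at 0.13 at 16 weeks.

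A list of 35 other immediate early genes, 34 of them tested, had 1 gene higher and 0 lower at 12 weeks, and 6 higher and 1 lower at 16 weeks, with median log2 fold changes of 0.05 and 0.65. Over all genes 5.01% were called higher and 1.34% lower at 12 weeks, and 8.49% and 2.64% at 16 weeks, with medians of -0.01 and 0.03. At 12 weeks the gene was Maff, a small Maf factor, which was 2.63-fold higher in MRL/lpr (adjusted p 0.0188, edgeR). The Maff call was lost when any MRL/+ library of that age was left out (adjusted p 0.0590, 0.118 and 0.0718 without replicates 1, 2 and 3). It was also lost without the 4 libraries named above (0.139) and on scaling to the epithelial genes (0.130). At 16 weeks Per1, a clock gene that glucocorticoids also induce, was 1.58-fold higher (34.6 ± 6.06 against 21.9 ± 2.53 CPM, adjusted p 0.0139). Nfkbiz, an NF-kappaB regulator, Klf6 and Zfp36, which destabilises cytokine mRNAs, were 2.34-, 2.61- and 2.71-fold higher (adjusted p 0.0288, 0.0303 and 0.0334). The calls of Nfkbiz, Klf6 and Zfp36 were lost without any MRL/+ library of 16 weeks, without MRL/lpr 16 weeks replicate 1 or replicate 4, and that of Klf6 also without replicate 2 or 3. That of Per1 was lost without MRL/+ 16 weeks replicate 1 (0.0780) or 3 (0.0855). Without the 4 libraries the calls of Per1, Nfkbiz, Klf6 and Zfp36 were all lost (adjusted p 0.110, 0.189, 0.122 and 0.149). Among the other called genes were Gadd45b (higher, log2 fold change 1.68) and Gadd45g (lower, -0.61).

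Of 18 genes of the ERK cascade, which carry the signal, 0 were called at 12 weeks and 1 at 16 weeks, where 6.36% and 11.1% of all genes were called. This was Rps6ka1, which codes for the ERK-activated kinase RSK1 and was 1.85-fold higher (26.3 ± 6.91 against 14.2 ± 2.53 CPM, adjusted p 0.0121, edgeR), a call lost without MRL/+ 16 weeks replicate 1 (0.0522) or 3 (0.0895) and without the 4 libraries (0.0795). Of 16 growth factor receptors, 15 were tested and 0 were called in any comparison, beside 6.36% and 11.1% of all genes between the strains. Ntrk2, the receptor of the neurotrophin BDNF, and Fgfr2, a fibroblast growth factor receptor, were the most abundant per kilobase, at 54.6 to 60.1 and 12.6 to 16.9 CPM per kilobase over the 4 groups.

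Genes of other stress responses were described in the same way. Of 10 heat shock genes, 4 were lower in MRL/lpr at 12 weeks, where 1.34% of all genes were called lower, and 3 at 16 weeks (2.64%). Dnajb1, an HSP40 co-chaperone, was 1.84-fold lower at 12 weeks (48.7 ± 5.14 against 89.8 ± 11.1 CPM, adjusted p 0.000624, edgeR) and 1.88-fold lower at 16 weeks (log2 fold change -0.91). Hsph1, an HSP110 chaperone, was 1.78-fold lower at 12 weeks (adjusted p 0.00268) and within MRL/lpr rose 1.92-fold from 12 to 16 weeks (adjusted p 0.00411). Hspa1b and Hspa1a, a near-identical pair whose reads the counting could split, were 9.38- and 4.02-fold lower at 12 weeks. At 16 weeks they were 2.80- and 2.12-fold lower, calls that held in 19 and 6 of 27 alternatives. All 3 calls of 16 weeks were lost on scaling to the epithelial genes, with log2 fold changes of -0.36 for Dnajb1, -0.85 for Hspa1b and -0.47 for Hspa1a (adjusted p 0.117, 0.176 and 0.398). Without the 4 libraries the calls of Hsph1 and Hspa1a at 12 weeks (adjusted p 0.0950 and 0.0996), of Hspa1b and Hspa1a at 16 weeks (0.0606 and 0.120) and of Hsph1 between the ages (0.158) were lost. Of 7 targets of the stress factor ATF4, Sesn2 was lower at 12 weeks (1.52-fold, adjusted p 0.0426, a call that held in 8 of 27 alternatives and was lost without the 4 libraries, 0.464) and 0 were called at 16 weeks. Of 7 glucocorticoid targets, 0 were called at 12 weeks, and Per1 alone at 16 weeks.

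Neuronal transcripts were present in all libraries. The sum of 7 neuronal genes was highest in MRL/+ 12 weeks replicate 1 (581 CPM), where Fos was at its highest (26.8 CPM). It was 82.1 CPM in MRL/+ 12 weeks replicate 3, where Egr1 was at its highest (67.7 CPM). Over the 18 group-centred libraries Fos and the neuronal sum gave r = 0.373 (rho 0.373, permutation p 0.161 and 0.174, adjusted p 0.912 and 0.808), and r = 0.355 without the 2 farthest libraries. For Egr1 and Dusp1 r was 0.223 and 0.327 (permutation p 0.406 and 0.254, adjusted p 0.912 for both). The marker sum closest to these 3 genes was that of 5 erythrocyte genes, which ran from 3.07 to 16.6 CPM over the libraries. Fos and this sum gave r = 0.692 (rho 0.686, permutation p 0.0058 and 0.00695, adjusted p 0.188 and 0.386), and r = 0.676 without the 2 farthest libraries. For Egr1 r was 0.674 (rho 0.626, permutation p 0.00908 and 0.0178, adjusted p 0.236 and 0.386) and 0.679 without them, and for Dusp1 r was 0.575 (rho 0.608, permutation p 0.0202 and 0.0125, adjusted p 0.436 and 0.386) and 0.628 without them. The part of blood content in these levels was not tested.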

How the data were processed

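Choroid plexus had been flash frozen, and RNA libraries were made with an Illumina TruSeq kit and sequenced on a HiSeq2500, per the labels. The authors deposited raw read counts per gene for 18 libraries. Per the submitters' processing notes, the tools were STAR 2.5.3a, featureCounts 1.26.0 and DESeq2 1.16.1, with the genome GRCm38. Neither the annotation release, nor the strand setting, nor the handling of multi-mapping reads is given in the sources used here.

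The counts were analysed with edgeR 4.0.16 in R 4.3.3: filterByExpr by group, TMM and the robust quasi-likelihood test with 1 mean per group over all 18 libraries, Benjamini-Hochberg adjustment over 16598 genes, called at an adjusted p under 0.05. Log2 CPM used a prior count of 2. Intervals and floors cover counting error only. The fit was tested on simulated data. A check of 36 pairs of libraries within groups found no repeated library (lowest chi-square per gene 5.61). Alternatives were RLE size factors, scaling to 14 epithelial genes, other filters, DESeq2 1.42.0, limma-voom (limma 3.58.1), a fit of the compared groups only, a replicate block, and fits without each library or without 4 libraries of high pineal, cerebellar or muscle sums.

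The 10 genes, the lists and the tests were chosen with earlier results of these data known. Named from each further pathway list were up to 4 called genes per comparison by smallest p, or else the 2 most abundant; the 10 genes nearest to Fos and to Dusp6 were also named. Relations with marker sums, and their rank alternative, were chosen after seeing the data. 1 gene of the ERK cascade list is not reported here.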

Additional observations from a re-analysis of the deposited data

Results flagged for a closer look

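In groups of 6 libraries, 20 sets of values (10 genes in MRL/lpr at each age) were screened for a highest or lowest library set apart from the rest by more than Dixon's 95% critical value of 0.625 of the group's range. For normally distributed values, chance flags about 1 in 20 groups. The screen used CPM on a linear scale, which stretches high values, so this rate need not hold here. In all, 6 flags were found, all of them replicate 1 of its group standing high. In MRL/lpr 12 weeks replicate 1, Jun stood at 17.3 CPM, Junb at 36.0, Atf3 at 5.42 and Ier2 at 17.3. In MRL/lpr 16 weeks replicate 1, Junb stood at 39.1 CPM and Atf3 at 7.75. The genes that correlate closely across libraries are not independent flags. These 2 libraries also held the highest leukocyte sums of their groups, 4187 and 3334 CPM, and the part of leukocyte content in these values was not tested.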

How the results depend on the processing

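Depth limits Fosb, Atf3 and Spry4, whose levels rest on few reads per library, and 3 MRL/+ libraries per age limit every strain comparison. The replicate numbers in the labels gave no clear pairing of libraries. The 21 pairs of the same number across groups had correlations with a median of 0.0465, of which 6 exceeded 0.1. The 96 pairs of different number had a median of -0.0030, and 35 exceeded 0.1. Of 18 libraries, 2 correlated best with one of their own number. With the replicate block 1092 and 1424 genes were called between the strains at 12 and 16 weeks, and between the ages in MRL/lpr 1 gene and 0 of the 10. With the block Ier2 and Dusp1 turned to 0.16 and 0.13 between the strains at 12 weeks and Dusp1 to -0.27 between the ages in MRL/lpr (log2 fold changes here and below). No reversed value of the 10 genes passed the test in any alternative. The within-group SDs moved by less than the set margin under all alternatives tried.

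Scaling to the epithelial genes shifted the median of all tested genes by 0.56 at 16 weeks, 0.28 between the ages in MRL/lpr, -0.31 in MRL/+ and 0.59 in the interaction. It gave 567 called genes (542 higher, 25 lower) at 12 weeks and 3278 (3240 and 38) at 16 weeks, and called 0 of the 10 between the ages in MRL/lpr. Under it Junb turned to 0.28 between the ages in MRL/lpr and Dusp6 to -0.19 in MRL/+. DESeq2 called 1665 genes and 1 of the 10 at 12 weeks, and 84 and 10 genes between the ages in MRL/lpr and MRL/+. Limma-voom called 3515 genes (1595 higher, 1920 lower) and 1 of the 10 at 12 weeks, 4864 (2414 and 2450) at 16 weeks, and 21 and 1724 between the ages in MRL/lpr and MRL/+. With it Ier2, Dusp1 and Spry4 turned to 0.12, 0.068 and 0.13 at 12 weeks, Fosb and Dusp1 to -0.28 and -0.30 at 16 weeks, and Dusp1 to -0.37 in the interaction. Between the ages it gave -0.24 for Fos, -0.35 for Fosb, 0.056 for Junb and -0.54 for Dusp1 in MRL/lpr, and 0.10 for Atf3 and 0.088 for Spry4 in MRL/+. The fit of the compared groups alone called 1 of the 10 at 16 weeks, and 0 genes and 0 of the 10 between the ages in MRL/lpr. The cause of these shifts was not tested.

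Without the 4 libraries of high pineal, cerebellar or muscle sums, 34 and 503 genes were called between the strains at 12 and 16 weeks, 1 of the 10 at 16 weeks, 0 genes and 0 of the 10 between the ages in MRL/lpr, and 8 pairs of genes. Spry4 then turned to 0.77 at 12 weeks and 0.30 between the ages in MRL/+, and Junb to 0.16 in MRL/lpr. Leaving out each library in turn gave 259 to 1463 called genes and 0 to 1 of the 10 at 12 weeks, with 259, 384 and 321 genes without MRL/+ 12 weeks replicates 1, 2 and 3. At 16 weeks it gave 665 to 2596 genes and 1 to 3 of the 10, with 771, 858 and 665 genes without MRL/+ 16 weeks replicates 1, 2 and 3. Between the ages in MRL/lpr it gave 1 to 9 genes and 0 to 1 of the 10. Signs turned within these ranges at 12 weeks for Dusp1 (-0.55 to 0.64), Egr1 (-1.003 to 0.35), Ier2 (-0.44 to 0.51) and Spry4 (-0.48 to 0.55), and in the interaction for Ier2 (-0.10 to 0.86). Between the ages they turned for Dusp1 (-0.41 to 0.28), Fos (-0.10 to 0.51) and Junb (-0.41 to 0.13) in MRL/lpr, and for Atf3 (-0.52 to 0.12), Dusp6 (-0.029 to 0.37) and Spry4 (-0.95 to 0.14) in MRL/+.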
